A study of Mus musculus with 9 samples.

Results

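Liver gene expression after a mixture of insulin and biomineralized insulin was set against that of untreated KKAy liver. The biomineralized insulin (BI) group and the untreated group had 3 arrays each, 6 of the 9 arrays of the study, and were chosen by their labels. All 45037 probe sets of the array were compared, with weight on the 17547 whose mean over the 9 arrays was 7 or more on the log2 scale. KKAy mice carry the yellow allele of the agouti gene, are obese and serve as a model of type 2 diabetes. All groups were mice 8 weeks old, kept in groups of 8 to 12, and the labels give a chow with 34% fat for every array except BI replicate 2, whose growth protocol describes rats. Per the labels' protocols, the BI mice received 100 µL into the peritoneum with insulin at 40 µg/mL, of which 11% was in the biomineralized form. The insulin group received the same total amount without that form. The untreated group has the treatment none, while the protocol speaks of controls injected with culture medium (DMEM), so a contribution of the injection itself cannot be told apart from that of the mixture. Whether each array holds RNA of 1 animal or of a pool is not stated, so the p-values reflect only how far these samples spread, and that spread may be technical.

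Insulin acts on hepatocytes through its receptor, the IRS adaptor proteins and the kinase Akt. Its known effects in liver are to induce fatty acid synthesis through the transcription factor Srebf1, to restrain glucose production, and to support cholesterol synthesis, which Srebf2 controls. The liver also runs programmes for fatty acid oxidation, bile acid synthesis and drug metabolism, whose enzymes include the large Cyp2c family of cytochromes P450.

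The labelled tissue was borne out by its markers. Alb, the gene of serum albumin, lay between 15.15 and 15.45 on the 9 arrays, and the 10 measured hepatocyte markers had a median BI minus untreated difference of -0.0032. Array medians lay between 6.11 and 6.30, the BI and untreated medians overlapped, and any 2 arrays correlated at 0.909 to 0.921. For Gapdh, the 3' probe set minus the 5' probe set, a measure of RNA integrity, gave 0.39, 0.26 and 0.42 on the BI arrays against 0.28, 0.31 and 0.65 on the untreated arrays. The highest of these 6 values belonged to untreated replicate 3, which also had the highest 3' minus 5' difference of actin among them (2.11).

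Few probe sets differed beyond the spread between arrays. With all 9 arrays in one limma fit and Benjamini-Hochberg adjustment over 45037 probe sets, 5 passed an adjusted p of 0.05 (0.0111% of those tested), 3 higher (0.00666%) and 2 lower (0.00444%) with BI. An unadjusted p under 0.05 was reached by 2016 probe sets (4.48%). Among the 17547 probe sets at a mean of 7 or more, 304 reached it (1.73%), 142 higher (0.809%) and 162 lower (0.923%), and none of them passed the adjusted threshold. This fit used a single variance prior for all signal levels. The share at that p was 7.17% at a mean under 5 and 0.452% at 13 or more. With only the 17547 brighter probe sets in the fit, 758 of them reached it. The BI and untreated arrays did not overlap for 1530 of these brighter probe sets (8.72%). All 5 calls were lost on leaving out any 1 of the 6 arrays (0 called, with the smallest adjusted p between 0.073 for untreated replicate 3 and 0.153 for untreated replicate 2), while the count of 304 went up to 484 without untreated replicate 1.

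Signal level set how large a difference could be seen. Of the 16043 probe sets with a mean under 5, 34.6% differed at least 2-fold between the group means, and the median half-width of the 95% interval was 2.13 on the log2 scale. From 7 to 9 the half-width was 0.58 and 0.734% differed 2-fold, and at 13 or more it was 0.38 and 0.362% did so. Over all 17547 brighter probe sets, 109 (0.621%) differed at least 2-fold, 60 higher and 49 lower with BI. The brightest genes differed little. The 10 genes with the highest mean, among them Fabp1, the fatty acid carrier of hepatocytes, Fgb, a chain of fibrinogen, Apoa1, the main protein of high-density lipoprotein, and Cyp2c29, had differences between -0.07 and 0.13, and the groups overlapped for 10 of the 10.

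**Figure D1:**
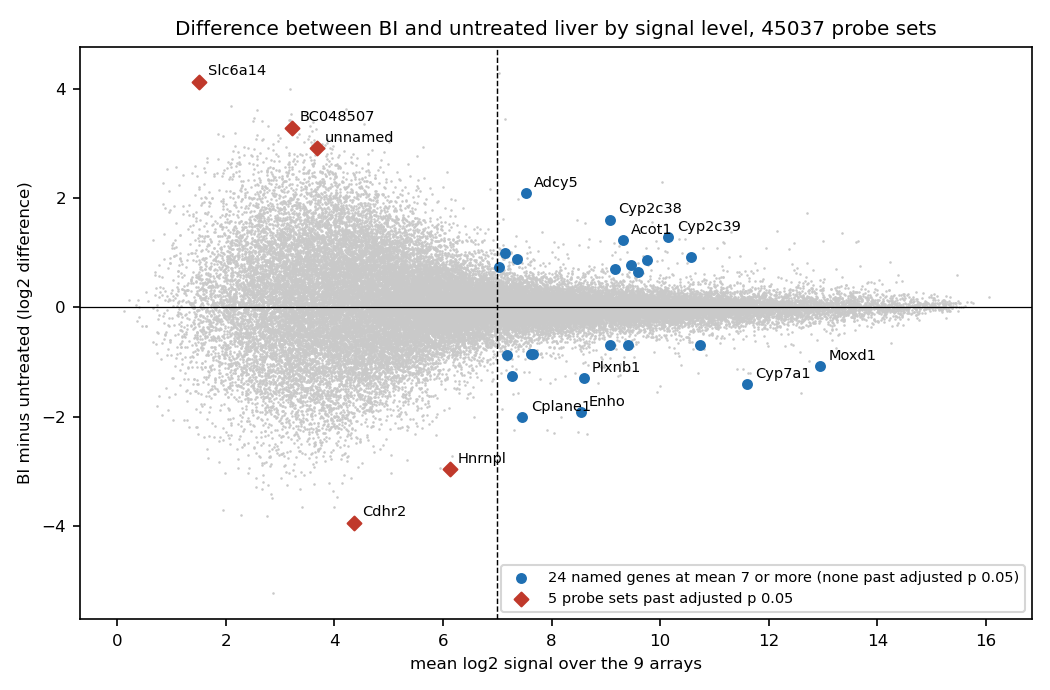
BI minus untreated log2 difference of the group means (y axis) against the mean log2 signal over the 9 arrays (x axis) for 45037 probe sets, 1 point each. Red diamonds are the 5 probe sets past an adjusted p of 0.05, all at a mean below 7 (dashed line), and blue circles are the 24 brighter genes named in the text; the cloud narrows from left to right.

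All 5 probe sets past the threshold were dim, with a mean below 7. With a variance prior that followed the signal level and a robust limma fit, 4 of them did not pass. The exception was the probe set annotated to Hnrnpl. Slc6a14, a carrier of neutral and basic amino acids, read 4.10, 4.39 and 3.95 on the BI arrays against 0.00, 0.00 and 0.04 on the untreated arrays. The untreated values sit at the floor of the scale, so the difference of 4.13 ± 0.32 (SE, limma, adjusted p 0.0384) depends on where that floor lies. A second Slc6a14 probe set, brighter than the first, had a difference of -0.53. Slc6a14 was also near the floor with insulin alone (0.00, 1.13 and 0.00).

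BC048507, a gene named only as a clone, rose by 3.29 ± 0.28 (limma, adjusted p 0.0452), from 1.12, 1.47 and 0.79 on the untreated arrays to 4.37, 4.22 and 4.66 with BI. The insulin arrays read 3.64, 4.39 and 4.27 for BC048507, within reach of the BI arrays, and BI minus insulin was 0.32 (95% interval -0.33 to 0.96). A probe set without a gene name rose by 2.92 ± 0.21 (limma, adjusted p 0.0384), from 2.50, 2.36 and 2.85 to 5.69, 5.58 and 5.20. On the insulin arrays this unnamed probe set read 3.12, 2.86 and 2.91, below every BI array.

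Cdhr2, a cadherin that links microvilli, fell by 3.94 ± 0.34 on the log2 scale (limma, adjusted p 0.0452). It read 5.44, 6.10 and 6.0 on the untreated arrays and 1.43, 2.18 and 2.10 with BI, while the insulin arrays stayed at 5.89, 4.90 and 5.19. The fall lay in the low range of signal, and with values under 6 set to 6 the Cdhr2 difference was -0.03. The other probe set that fell is annotated to Hnrnpl, an RNA-binding regulator of splicing. It read 6.96, 7.16 and 7.71 on the untreated arrays, 4.26, 4.54 and 4.17 with BI and 6.81, 6.62 and 6.87 with insulin, a BI minus untreated difference of -2.95 ± 0.23 (limma, adjusted p 0.0384). The brighter Hnrnpl probe set, with a mean of 10.5, differed by -0.04, so the 2 probe sets of Hnrnpl did not move together.

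Of these 5 probe sets, 4 also stood apart from the insulin arrays, although no probe set passed the threshold in the direct comparison of BI with insulin. That comparison in limma called 0 of 45037 (smallest adjusted p 0.0643), with 1821 (4.04%) at an unadjusted p under 0.05. BI minus insulin was 3.77 for Slc6a14 and 2.52 for the unnamed probe set (limma, adjusted p 0.0643 for each), -3.42 for Cdhr2 (adjusted p 0.123) and -2.44 for the dim Hnrnpl probe set (adjusted p 0.111). Insulin against untreated called 0 probe sets in limma as well (smallest adjusted p 0.171), with 2014 (4.47%) at an unadjusted p under 0.05. BI and insulin were both set against the same 3 untreated arrays, and their differences from those arrays are not independent.

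At a mean of 7 or more, genes are described by their values, since none passed the threshold. Among 9559 such genes the BI and untreated arrays did not overlap for 870 (9.1%), 417 with higher (4.36%) and 453 with lower (4.74%) BI values, and 148 (1.55%) had an unadjusted p under 0.05. The 12 of smallest p in each direction follow, each represented by its brightest probe set.

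Cytochromes of the Cyp2c family, which oxidize drugs, steroids and fatty acids, headed the genes with higher BI values. Cyp2c39 read 10.71, 11.13 and 10.64 with BI against 9.28, 9.57 and 9.78 on the untreated arrays, and the insulin arrays lay between both groups at 10.12, 9.95 and 10.19. Its difference was 1.28 ± 0.21 (limma, adjusted p 0.503). Cyp2c38 read 9.70, 9.90 and 9.94 with BI, 8.40, 7.69 and 8.62 untreated, and 9.24, 9.40 and 8.80 with insulin, a BI minus untreated difference of 1.61 ± 0.28 (adjusted p 0.563). BI minus insulin was 0.74 (95% interval 0.25 to 1.23) for Cyp2c39 and 0.70 (0.03 to 1.36) for Cyp2c38, with an adjusted p of 1 for both. For both genes, the 3 groups lay in the same order without overlap, untreated lowest and BI highest. This held for 7 of the 24 genes, the others being Aldh3a2, Taf7 and Hspb1 and, with the order turned, Plxnb1 and Nup210. The 24 genes were chosen for BI and untreated arrays that do not overlap, and the share of all genes in such an order was not counted. Cyp2c39 and Cyp2c38 both passed the threshold when the variance prior followed the signal level and the fit was robust (adjusted p 0.0493 for each). The same limma fit on only the probe sets at a mean of 7 or more gave 0.0794 for each, past which neither was called.

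Cyp2c38 and Cyp2c39 are close relatives on chromosome 19, and whether their probe sets also take up signal from other Cyp2c transcripts was not tested. Their promoters, shown because both genes had higher values together, share 75.8% of aligned positions over the 250 bases before the start (RefSeq, GRCm38.p6), the closest match of Cyp2c38 among 8 family members with a promoter sequence. Of the Cyp2c39 starts that RefSeq lists, the one whose promoter is closest to that of Cyp2c38 was used. The last 150 bases before each start are given 5′ to 3′, for Cyp2c38 from chr19:39463076-39463225 on the minus strand and for Cyp2c39 from chr19:39347196-39347345 on the plus strand. Capitals mark the 2 runs of 12 or more letters that both stretches hold, of 13 and 17 bases.
Cyp2c38: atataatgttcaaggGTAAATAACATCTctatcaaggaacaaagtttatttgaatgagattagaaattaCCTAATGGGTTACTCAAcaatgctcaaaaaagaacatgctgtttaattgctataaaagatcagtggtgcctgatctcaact
Cyp2c39: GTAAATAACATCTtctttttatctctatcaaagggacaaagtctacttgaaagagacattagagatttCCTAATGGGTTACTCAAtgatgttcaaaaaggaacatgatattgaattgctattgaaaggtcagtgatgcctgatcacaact

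The whole family lay on one side. All 11 measured Cyp2c genes had BI values above the untreated ones on average (median 0.54, range 0.07 to 1.61), where 50.1% of all 18194 genes lay above 0 and the median over all genes was 0.0004. An unadjusted p under 0.05 was reached by 3 of the 11, against 3.9% of all genes, and none passed the threshold. Cyp2c38 and Cyp2c39 were among these 3 and were picked above from the same values, so the count is no separate reading. The third was Cyp2c54, with 11.02, 12.30 and 11.69 on the BI arrays against 11.25, 9.56 and 10.70 on the untreated arrays, which overlap. The insulin arrays had a median of 0.43 above untreated over the same 11 genes, and BI minus insulin was 0.15. The BI and untreated arrays did not overlap in the family's level, at -0.05, 0.48 and 0.30 against -0.11, -0.59 and -0.37 (median over members, relative to the 9-array mean). Untreated replicate 2 was the lowest, and without it the family's median was 0.17 in place of 0.54. Several letter groups were searched in the promoters. The commonest among all genes was in 4 of the 9 Cyp2c genes with a promoter sequence (44.4%, against 37.5% of all genes). Those in 0.0407% to 6.86% of all genes were in 0 of the 9. The remaining letter group, counted next, was held by Cyp2c38 but not by Cyp2c39. The letters TATAAA, on either strand within 250 bases before the start, were present in 5 of the 9 Cyp2c genes with a promoter sequence (55.6%) and in 14.3% of 27025 genes.

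The 12 genes with higher BI values also held an enzyme of fatty aldehydes and one of fatty acyl-CoA. Aldh3a2, the fatty aldehyde dehydrogenase, read 10.01, 10.12 and 10.42 with BI against 9.12, 9.50 and 9.35 untreated, a difference of 0.86 ± 0.20 (limma, adjusted p 0.772). Acot1, a cytosolic thioesterase that frees fatty acids from coenzyme A, read 9.86, 10.37 and 9.68 with BI against 8.76, 8.81 and 8.66, a difference of 1.23 ± 0.36. The untreated arrays were tight for Acot1, and the insulin arrays spread over both groups (8.46, 9.41 and 9.79). These are members of a list of thioesterases and omega-oxidation enzymes, many of them known targets of the fatty acid receptor Ppara. Of its 18 measured genes 14 had a difference above 0 and 4 below, with a median of 0.22, where 50.1% of all genes lay above 0. The BI arrays lay wholly above the untreated ones for 3 of the 18 (4.84% of all genes) and wholly below for 1 (4.52%). An unadjusted p under 0.05 was reached by 3 in the higher (2.13% of all genes) and 0 in the lower direction (1.77%). Aldh3a2 and Acot1 were among these 3 and were already picked from the same values. The third was Acot3, a peroxisomal thioesterase (2.07 ± 0.86), whose arrays overlapped. Without untreated replicate 2 the median of the list was 0.09, and without untreated replicate 3 it was 0.36.

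The genes of mitochondrial and peroxisomal oxidation centred near 0. Of 27 measured genes of fatty acid oxidation, 17 were above and 10 below 0, with a median of 0.03 that became -0.0038 when array medians were set equal. Cpt1a, the carnitine transferase that admits long-chain fatty acids to mitochondria, read 12.59, 12.28 and 12.75 with BI against 12.39, 11.78 and 11.91, which overlap. Ppargc1a, a coactivator of oxidation and gluconeogenesis, was lower on all BI arrays (8.12, 8.00 and 8.32 against 8.65, 8.70 and 8.80), and the insulin arrays were as low (7.97, 8.47 and 8.00). Its difference was -0.57 ± 0.20 (limma, adjusted p 0.999).

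The other 8 genes with higher BI values had varied roles. Hspb1, a small heat shock protein, read 9.80, 9.65 and 10.09 with BI against 9.29, 8.79 and 9.11 (0.78 ± 0.21), and its second bright probe set had 0.47. Sh2b1, an adaptor that strengthens signalling by the insulin receptor, read 9.62, 9.48 and 9.16 against 8.76, 8.70 and 8.71 (0.70 ± 0.19). Esrrg, an orphan nuclear receptor, read 7.38, 7.14 and 7.93 against 6.5, 6.41 and 6.54 (1.00 ± 0.28), and its 2 dimmer probe sets had 1.01 and 2.41. For Sh2b1 and Esrrg the insulin arrays were as high as the BI arrays, with BI minus insulin at 0.06 (95% interval -0.37 to 0.50) and 0.01 (-0.64 to 0.66).

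Adcy5, an adenylyl cyclase that makes cyclic AMP, had the largest difference of the 12 (2.09 ± 0.52), with 7.95, 8.32 and 8.20 on the BI arrays. Its untreated arrays were uneven (5.59, 5.24 and 7.38), its 3 other probe sets had -0.12 to 0.49, and BI minus insulin was -0.19. Taf7, a subunit of the general transcription factor TFIID, had 0.74 ± 0.18, Pnldc1, a nuclease that trims small RNAs, 0.89 ± 0.23, and Snx24, a sorting nexin, 0.92 ± 0.26. The dimmer probe sets of Taf7 had -0.735 and 1.85. Ncaph2, a subunit of condensin II, had 0.64 ± 0.19, but its 2 other bright probe sets had -0.21 and -0.31, so its probe sets disagreed in sign. The adjusted p of these 8 genes lay between 0.772 and 0.999.

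**Figure D2:**
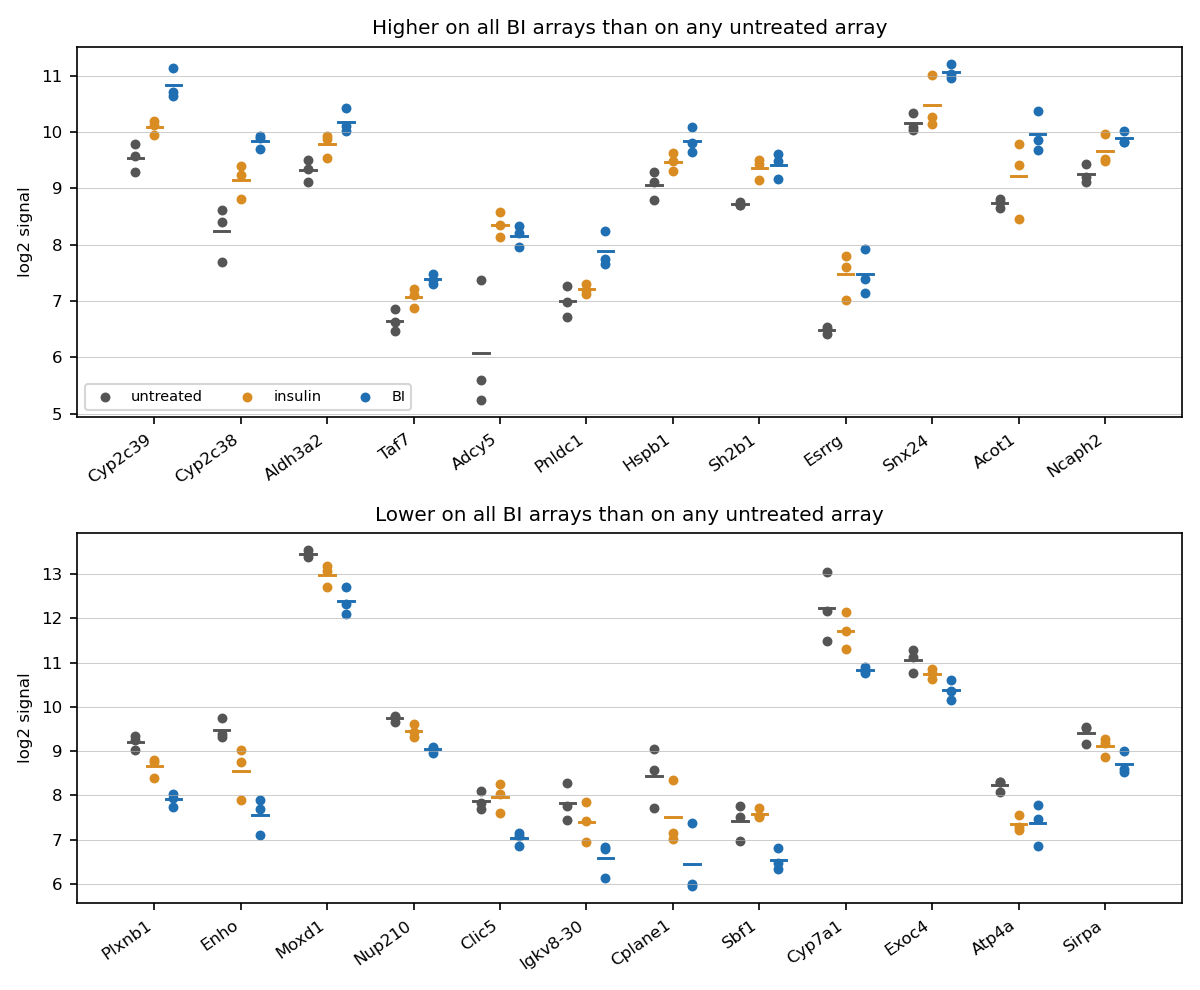
Log2 signal on each of the 9 arrays (points) and group means (bars) for the 24 genes of smallest p at a mean of 7 or more, 12 with higher BI values (top) and 12 with lower (bottom). BI and untreated arrays do not overlap by the way the genes were chosen; the insulin arrays lie between both for 7 genes, such as Cyp2c39, Taf7 and Plxnb1, with the BI arrays for Adcy5 and with the untreated arrays for Clic5 and Sbf1.

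Plxnb1 and Enho headed the genes with lower BI values. Plxnb1, a receptor for semaphorins, read 8.04, 7.74 and 7.95 with BI, 9.02, 9.34 and 9.25 untreated and 8.40, 8.80 and 8.75 with insulin, again 3 groups without overlap. Its difference was -1.30 ± 0.19 (limma, adjusted p 0.48), and a second bright probe set had -0.14. Enho, which codes for the secreted peptide adropin, read 7.90, 7.69 and 7.11 with BI against 9.38, 9.76 and 9.31, a difference of -1.92 ± 0.35 (adjusted p 0.578). A second bright Enho probe set had -2.25, while 2 dim ones had 0.14 and -0.86. The insulin arrays of Enho, at 8.76, 7.90 and 9.02, reached down to the highest BI array, and BI minus insulin was -0.99 (95% interval -1.80 to -0.19).

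Moxd1, a monooxygenase-like protein of the endoplasmic reticulum, was lower on all BI arrays, with 12.72, 12.11 and 12.33 on the BI arrays against 13.45, 13.38 and 13.55. Its difference was -1.08 ± 0.22 (limma, adjusted p 0.627). With that level-dependent variance prior and robust fit, Plxnb1, Moxd1 and the second Enho probe set passed the threshold (adjusted p 0.0493 each), as Cyp2c38 and Cyp2c39 did. The brightest Enho probe set did not (adjusted p 0.0525). That setting called 6 probe sets in all, of which 1, the dim Hnrnpl probe set, was among the 5 above. Run on only the probe sets at a mean of 7 or more, it called none (smallest adjusted p 0.0794).

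Cyp7a1, the rate-limiting enzyme of bile acid synthesis, read 10.76, 10.82 and 10.91 with BI against 11.49, 12.16 and 13.06 untreated. The BI arrays were close together and below every untreated and insulin array (insulin 11.71, 12.14 and 11.31), while the untreated arrays spread widely with replicate 3 on top. The difference was -1.41 ± 0.40 (limma, adjusted p 0.923), -1.0 without untreated replicate 3 and -1.78 without untreated replicate 1, and the second bright probe set had -0.94. Of 24 measured bile acid genes 16 lay above 0 and 8 below (median 0.11, and -0.0030 without untreated replicate 2), and no other reached an unadjusted p under 0.05.

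Clic5, a chloride intracellular channel protein, and Sbf1, a pseudophosphatase of the myotubularin family, were low on the BI arrays alone. Clic5 read 6.86, 7.07 and 7.15 with BI, 7.82, 7.70 and 8.11 untreated and 8.03, 7.59 and 8.26 with insulin. Sbf1 read 6.34, 6.47 and 6.80 with BI, 7.77, 6.96 and 7.51 untreated and 7.71, 7.52 and 7.5 with insulin. For both genes the BI arrays overlapped neither of the other groups. BI minus insulin was -0.93 (95% interval -1.46 to -0.41) for Clic5 and -1.04 (-1.62 to -0.47) for Sbf1, with adjusted p of 0.883 and 0.871 in limma. The dimmer probe sets of Clic5 had -0.25, -0.44 and 0.48, and that of Sbf1 had 0.90.

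The remaining 6 of the lower genes were given by Nup210, a nuclear pore protein (-0.69 ± 0.15), Cplane1, a ciliary protein (-2.01 ± 0.56), Exoc4, a subunit of the exocyst (-0.68 ± 0.21), Atp4a, the catalytic subunit of the gastric proton pump (-0.85 ± 0.26), Sirpa, an inhibitory receptor of myeloid cells (-0.70 ± 0.22), and the antibody segment Igkv8-30 (-1.25 ± 0.34). Cplane1 had a second bright probe set at -2.0 and dimmer ones from -1.96 to 0.59. The 3 bright probe sets of Exoc4 had -0.59 to -0.74, and its dimmer ones had -0.12 and 0.06. The second bright probe set of Sirpa had -0.27 and its dimmer one 0.19, and the dimmer probe set of Nup210 had 0.72. The insulin arrays of Atp4a (7.56, 7.22 and 7.29) lay within the range of its BI arrays (7.47, 6.85 and 7.79), with BI minus insulin at 0.01 (95% interval -0.59 to 0.62). In bulk tissue, fewer cells of a type and less RNA per cell cannot be told apart, which touches the values of Sirpa and Igkv8-30. The measured markers of Kupffer cells and macrophages had a median of -0.13 (6 of 19 above 0, and 0.05 without untreated replicate 2 or without BI replicate 3), with a level of 0.28, -0.24 and -0.34 on the BI arrays and -0.33, 0.31 and -0.03 untreated. Those of B cells had -0.12 (1 of 7 above 0), with a level of -0.35, -0.18 and -0.02 against -0.16, 0.25 and -0.20. Both sets overlapped between the groups, and their part in the values of Sirpa and Igkv8-30 was not tested.

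**Figure D3:**
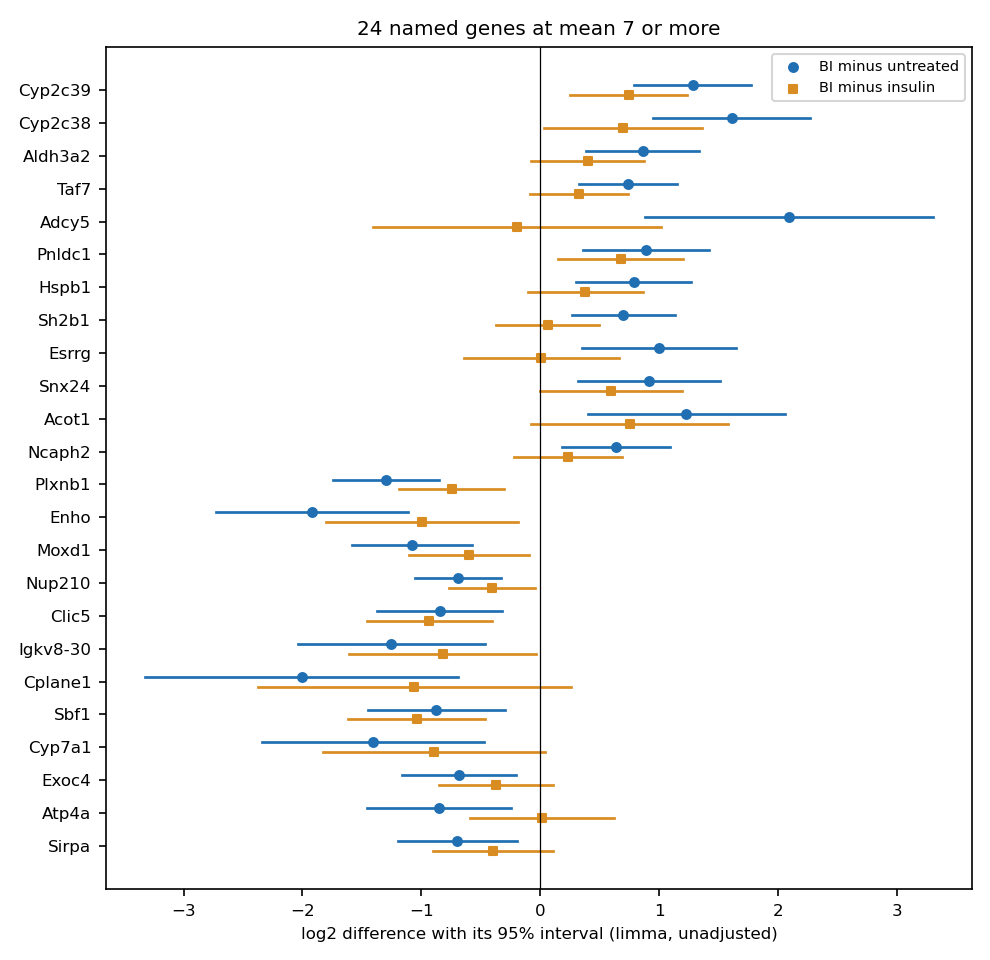
BI minus untreated (blue circles) and BI minus insulin (orange squares) log2 differences of the same 24 genes, with unadjusted 95% intervals from the limma fit. The blue intervals leave out 0 by the way the genes were chosen; the orange ones lie to the same side for Cyp2c39, Plxnb1, Enho, Clic5 and Sbf1 and straddle 0 for Adcy5, Sh2b1, Esrrg and Atp4a.

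Cholesterol synthesis genes were lower with BI as a group mean, but the untreated arrays disagreed among themselves. Of 21 measured genes 19 lay below 0 and 2 above, where 49.9% of all genes lay below, and the list had a median of -0.49. An unadjusted p under 0.05 was reached by 3 lower genes and 0 higher ones, where 1.77% of all genes were lower and 2.13% higher at that level, and none passed the threshold. Hsd17b7, which reduces a sterol ketone, read 10.29, 10.40 and 10.03 with BI against 10.63, 10.78 and 11.23 (-0.64 ± 0.22). Dhcr7, which completes cholesterol from its direct precursor, read 9.96, 10.13 and 9.78 against 10.37, 10.41 and 11.62 (-0.84 ± 0.34). These 2 genes and Ebp, a sterol isomerase (-0.21), had BI arrays wholly below the untreated ones, 3 of the 21 against 4.52% of all genes. The BI arrays lay wholly above for 0 of the 21 (4.84% of all genes). Msmo1, a sterol methyl oxidase, overlapped (9.39, 9.07 and 8.89 against 9.31, 10.24 and 11.22).

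Untreated replicate 3 held the highest untreated value of Hsd17b7, Dhcr7 and Msmo1. It was also the array with the highest Gapdh 3' minus 5' difference (0.65, with 0.55, 0.54 and 0.48 on the insulin arrays). Whether that difference bears on the values of these genes was not tested. The level of the list, as the median over members relative to the 9-array mean, was -0.16, -0.13 and -0.21 on the BI arrays and -0.15, 0.23 and 0.93 on the untreated arrays. On the insulin arrays it was -0.02, -0.30 and -0.24. The BI arrays thus lay together at the level of untreated replicate 1. Without untreated replicate 3 the list's median difference was -0.17, and without untreated replicate 1 it was -0.75. Insulin gave a median of -0.51 over the same genes, and BI minus insulin was -0.01. Hmgcs1, which makes the precursor of mevalonate, went the other way, with 12.84, 11.71 and 12.99 on the BI arrays, 11.74, 11.89 and 12.65 untreated and 11.47, 11.53 and 11.58 with insulin.

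Promoters of the cholesterol genes are shown for the letter group most of them hold, out of several searched. The letters counted above for Cyp2c were in 1 of the 17 cholesterol genes with a promoter (5.88%, against 14.3% of all genes). Rare letter groups, in 0.0407% to 0.977% of all genes, were in 0 of the 17. They included the SREBP site, searched as a site of the Srebf factors, at 0.226% of all genes. At such low shares, 0 of 17 cannot tell the list from other genes. CCAAT, on either strand within the 250 bases before the start, was present in 16 of the 17 cholesterol genes with a RefSeq promoter (94.1%) and in 37.5% of 27025 genes. It was also present in 11 of 13 thioesterase and omega-oxidation genes (84.6%), a list whose median lay on the other side of 0. CACGTG, on either strand, was present in 5 of the 17 cholesterol genes (29.4%, against 6.86% of all). The stretches of 60 bases below, 5′ to 3′ in the direction of transcription (GRCm38.p6), come from Hsd17b7 at chr1:169969206-169969265 (minus strand), Dhcr7 at chr7:143830137-143830196 (plus), Cyp51 at chr5:4104698-4104757 (minus) and Lss at chr10:76531515-76531574 (plus), with CCAAT or its reverse complement in capitals.
Hsd17b7: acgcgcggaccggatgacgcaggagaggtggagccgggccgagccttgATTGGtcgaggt
Dhcr7: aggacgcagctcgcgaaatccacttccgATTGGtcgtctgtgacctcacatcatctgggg
Cyp51: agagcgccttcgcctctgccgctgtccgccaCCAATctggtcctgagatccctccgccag
Lss: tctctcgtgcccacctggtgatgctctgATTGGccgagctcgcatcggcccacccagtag

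Cyp51 and Lss are further enzymes of the sterol branch. Cyp51 read 8.34, 8.38 and 8.11 with BI against 8.11, 9.34 and 10.39 untreated, and Lss 8.81, 8.74 and 8.67 against 8.72, 9.25 and 9.87. In both, untreated replicate 1 lay among the BI arrays and untreated replicate 3 far above them, the order seen for the list as a whole.

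Lipogenesis genes had the same shape with smaller differences. Of 28 measured genes 23 lay below 0 and 5 above (median -0.25), and the median was -0.06 without untreated replicate 3. Pnpla3, a lipase-like protein of lipid droplets, had -1.30 ± 0.54, with 6.74, 7.53 and 6.97 on the BI arrays against 7.22, 9.13 and 8.81. Fasn, the fatty acid synthase, read 12.57, 12.82 and 12.44 with BI against 12.05, 13.24 and 14.31 untreated, so that its BI arrays lay inside the untreated range. Srebf1, the regulator of this pathway, and Mlxipl, the carbohydrate-responsive one, had differences of 0.33 and 0.46. Mogat1, which makes diacylglycerol, was higher on all BI arrays (11.05, 11.42 and 11.06 against 10.08, 10.71 and 10.92), a difference of 0.61 ± 0.26 (limma, adjusted p 0.999).

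**Figure D4:**
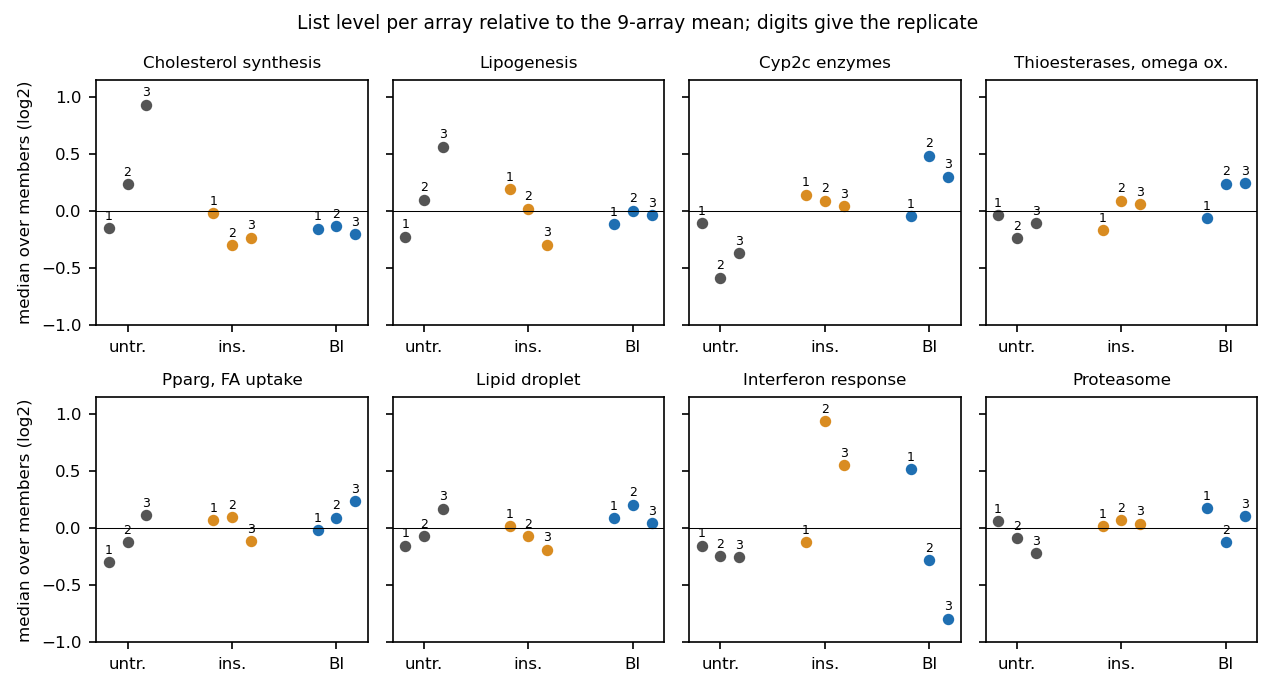
Level of 8 gene lists on each array, as the median over the members of the log2 signal relative to the 9-array mean (y axis), with the replicate number above each point. Untreated replicate 3 stands above the BI arrays for cholesterol synthesis (0.93) and lipogenesis (0.56), the BI arrays lie above the untreated arrays for Cyp2c enzymes, and they spread from -0.79 to 0.52 for the interferon response.

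Genes of fatty acid uptake and storage held several members with higher BI values. In the list of Pparg, a nuclear receptor of fat storage, and fatty acid uptake, 9 of 16 measured genes lay above 0 (median 0.19), a share near the 50.1% of all genes. At an unadjusted p under 0.05 there were 3 higher and 0 lower, where 2.13% of all genes were higher. Lpl, the lipoprotein lipase, read 11.31, 12.19 and 12.53 with BI against 10.98, 9.74 and 11.16 (1.39 ± 0.48). Fabp2, an intracellular fatty acid carrier, read 13.15, 13.17 and 13.21 against 12.78, 12.54 and 12.17 (0.68 ± 0.23). Mogat1 was the third. Pparg itself read 8.49, 8.49 and 8.63 with BI against 7.85, 8.17 and 8.72, which overlap. The median of the list turned to -0.05 without BI replicate 3.

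Of 17 measured lipid droplet genes 11 lay above 0 (median 0.21), and 2 higher and 0 lower ones reached an unadjusted p under 0.05, against the same 2.13%. Fitm1, which helps droplets form, read 10.82, 11.17 and 10.79 with BI, 10.33, 10.25 and 10.48 untreated and 10.50, 10.55 and 10.06 with insulin, with BI above both other groups. Plin4, a droplet coat protein, had 1.04 ± 0.44 against untreated and 1.09 against insulin, with 8.70, 9.04 and 7.65 on the BI arrays and 6.70, 7.76 and 7.81 untreated. Plin2, the main droplet coat of hepatocytes, had -0.08. The list's median was 0.08 without BI replicate 2, and insulin gave -0.11 over the same genes.

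Some of these genes also mark fat cells. Adipoq, the adipocyte hormone adiponectin, read 4.39, 4.24 and 5.45 on the BI arrays, 0.45, 1.69 and 4.01 untreated and 2.59, 4.95 and 4.89 with insulin (2.64 ± 1.00 against untreated, limma, adjusted p 0.999). All values of Adipoq lay below the array medians. The 7 measured adipocyte markers had a median of 0.17, with 6 above 0, and Fabp4, their brightest, had -0.30. This median rests on few genes and was larger without any 1 of the 6 arrays, from 0.27 without untreated replicate 1 to 0.97 without BI replicate 1. Their level, as a median over members, was 0.77, 0.11 and 0.52 on the BI arrays and -1.14, 0.48 and 0.37 untreated, which overlap, and their part in the lipid droplet values was not tested.

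The genes of insulin action itself lay near 0. Of 30 measured insulin signalling genes 15 lay above and 15 below 0 (median 0.006). Akt1, a kinase that insulin activates, read 8.27, 8.26 and 8.17 with BI against 9.02, 8.85 and 8.38 (-0.52 ± 0.22), and BI minus insulin was 0.03. The receptor adaptors Irs1 and Irs2 had -0.03 and 0.21. Of 19 gluconeogenesis genes 8 lay above and 11 below 0 (median -0.02). The BI arrays lay wholly above the untreated ones for 2 of the 19 (4.84% of all genes) and wholly below for 3 (4.52%). An unadjusted p under 0.05 was reached by 3, all lower, where 1.77% of all genes were lower at that level. Got1, the cytosolic aspartate aminotransferase, read 10.63, 10.28 and 10.11 with BI against 11.22, 11.25 and 10.81 (-0.76 ± 0.25), below the insulin arrays too (11.30, 10.64 and 11.02). Tat, the tyrosine aminotransferase, had -0.51 ± 0.19, and Ppargc1a was the other. Pck1 and G6pc, the gatekeepers of glucose production, had -0.17 and -0.09, with overlapping arrays.

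The study's title speaks of an epigenetic view of insulin action, and 45 histone-modifying enzymes and 14 genes of DNA methylation were therefore looked at. Of the histone modifiers 18 lay above and 27 below 0 (median -0.03), with 0 at an unadjusted p under 0.05. The smallest p belonged to Suv39h2, a methyltransferase of histone H3 (-1.10 ± 0.51), and Hdac4, a deacetylase (0.41 ± 0.20). Of the DNA methylation genes 5 lay above and 9 below (median -0.10), also with 0 at that level. The members of smallest p were Tet3, which oxidizes methylated cytosine (-0.87 ± 0.79), and Mbd1, which binds it (0.24 ± 0.26), and their BI and untreated arrays overlapped.

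**Figure D5:**
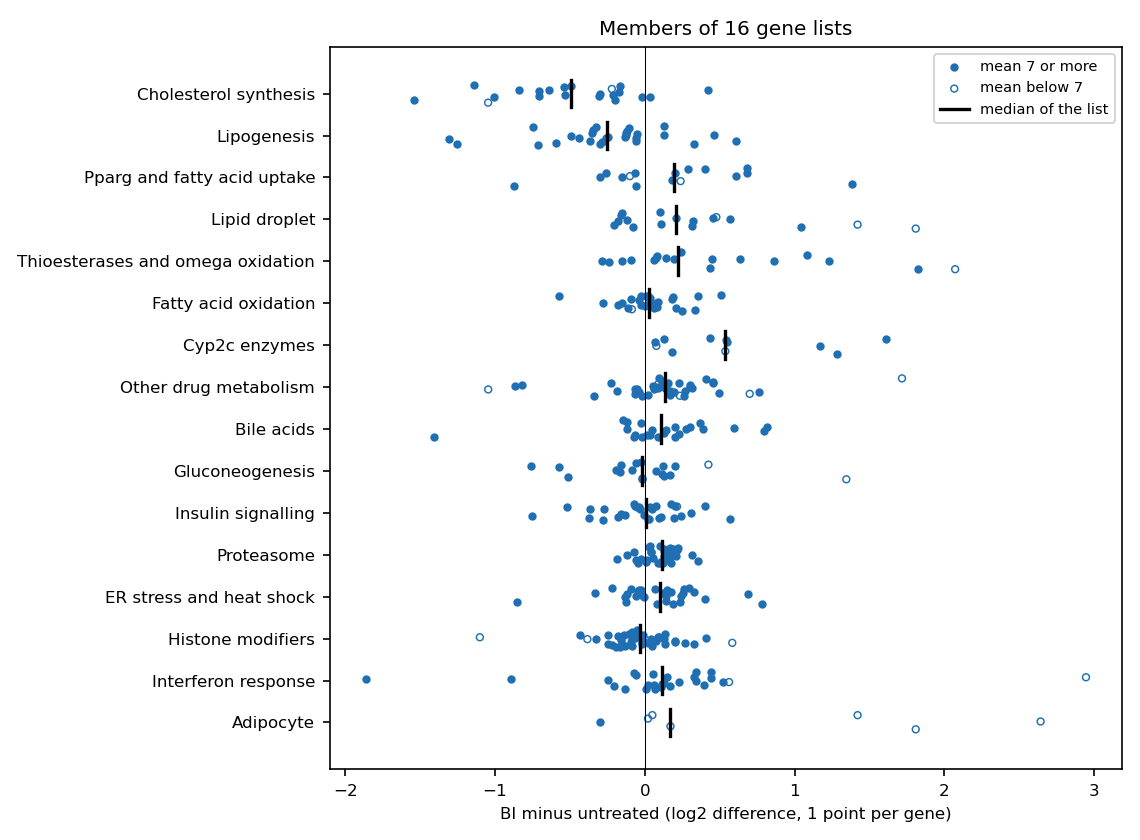
BI minus untreated log2 difference (x axis) of each measured member of 16 gene lists, with filled points for a mean of 7 or more, open points below 7, and a black bar at the list's median. All 11 Cyp2c genes lie to the right of 0 and 19 of 21 cholesterol genes to the left, while histone modifiers, insulin signalling and fatty acid oxidation centre near 0.

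Proteasome, protein folding and drug metabolism genes had small median differences above 0. Of 34 measured proteasome genes 28 lay above 0 (median 0.12), none with an unadjusted p under 0.05. Psma5, a subunit of the catalytic core, read 13.64, 13.40 and 13.64 with BI against 13.22, 13.20 and 13.19 (0.36 ± 0.16). Insulin gave the proteasome list 0.11, and without untreated replicate 3 its BI minus untreated median was 0.04. Of 30 genes of the ER stress and heat shock list 17 lay above 0 (median 0.10, and 0.03 without BI replicate 2), and 8 had BI arrays wholly above the untreated ones, against 4.84% of all genes, with 0 wholly below. Besides Hspb1 these included Pdia3, an oxidoreductase that folds glycoproteins, with tight values of 13.43, 13.46 and 13.49 against 13.15, 13.17 and 13.18, and 13.11, 13.13 and 13.23 with insulin. Its difference was 0.29 ± 0.14 (limma, adjusted p 0.999). Among 39 other drug-metabolism genes 28 lay above 0 (median 0.14, but -0.0030 without BI replicate 2 and 0.22 without BI replicate 1), and 1, the glutathione transferase Gstm2, reached an unadjusted p under 0.05, in the lower direction (-0.86 ± 0.29).

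Interferon-response genes varied widely among the BI arrays. Of 27 measured genes 20 lay above 0 (median 0.11), and 0 reached an unadjusted p under 0.05. The level of the list was 0.52, -0.28 and -0.79 on the BI arrays, -0.15, -0.24 and -0.25 untreated and -0.13, 0.94 and 0.55 with insulin. BI replicate 1 lay above and BI replicates 2 and 3 below all untreated arrays, and the median was -0.27 without BI replicate 1 and 0.40 without BI replicate 3. Oas2, which senses double-stranded RNA, read 8.05, 4.68 and 4.54 with BI against 8.14, 7.67 and 7.05. Mx1, an antiviral GTPase, read 7.0, 6.35 and 6.19 against 5.63, 5.07 and 0.00.

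Amino acid handling lay slightly below 0. Of 25 measured amino acid transporters 19 were below 0 (median -0.13), and for 4 the BI arrays lay wholly below the untreated ones, against 4.52% of all genes. They were Slc6a12 (-0.39), Slc38a2 (-0.27), Slc38a3 (-0.35) and Slc36a1, a lysosomal exporter, with 9.67, 9.50 and 9.39 against 10.03, 9.80 and 9.76 (-0.34 ± 0.17). Of 20 secreted liver hormones on the hepatokine list 11 were below 0. Enho was the lowest of them, and Serpinb1a, a protease inhibitor, the highest, at 7.64, 8.62 and 8.12 with BI against 5.40, 7.18 and 5.29 (2.17 ± 0.82, limma, adjusted p 0.999).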

How the data were processed

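The authors deposited log2 signals, 1 value per probe set and array, from 9 one-colour Affymetrix arrays. How they summarized probes is not stated in the sources used here. On each array the linear signal had a 2% trimmed mean of 500.004, and 152 to 247 values were exactly 0, so the values were used as already scaled, with a floor. The 64 control probe sets of 45101 were left out. Gene names are those of the 2016 platform annotation, in which 34945 probe sets had 1 symbol, 932 several and 9160 none, and 34741 were matched to current names. For each gene, the brightest probe set stands for it.

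All 9 arrays entered one limma fit (limma 3.58.1, R 4.3.3, lmFit and eBayes, 6 residual degrees of freedom), two-sided, with Benjamini-Hochberg adjustment. The fit was tested on simulated data. Genes named are all probe sets past the threshold, the 12 non-overlapping genes of smallest p per direction at a mean of 7 or more (clones and predictions left out), up to 4 members per list with an unadjusted p under 0.05 or else the 2 of smallest p, the 10 brightest genes and the brightest cell type markers. Other list members are named for their known role, with their values seen. The 50 gene lists (951 of 1066 genes measured), the members and the rules were chosen with earlier results of these data known. The number of arrays limits the precision. Alternatives were other scalings, filters, a floor, trend and robust fitting, fewer arrays and the replicate number as a block.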

Additional observations from a re-analysis of the deposited data

How the results depend on the processing

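The count of 5 called probe sets was 4 with quantile normalization, 5 with equal array medians and 6 with trend and robust fitting. Of those 6, only the dim Hnrnpl probe set was among the 5. In that limma fit the adjusted p was 0.45 for Slc6a14 and for Cdhr2, 0.897 for BC048507 and 0.978 for the unnamed probe set. It was 1 when probe sets under the median level were left out (the dim Hnrnpl probe set, adjusted p 0.00473). It was 0 for probe sets at a mean of 7 or more (smallest adjusted p 0.235, and 0 also with trend and robust fitting, 0.0794), with values under 6 set to 6 (0.127), with the 6 BI and untreated arrays alone (0.0771) and without any 1 of these arrays (0 to 0, smallest adjusted p 0.073 to 0.153). The filters leave out the dim probe sets by construction, and for the others the cause was not tested. With values under 6 set to 6, Slc6a14, BC048507 and the unnamed probe set give no value. The count of 304 brighter probe sets at an unadjusted p under 0.05 was 758 with only these tested, 734 with trend and robust fitting as well, 630 without those under the median level, 943 with values under 6 set to 6, 766 with trend and robust fitting and 186 with 6 arrays, and 229 to 484 leaving out 1 array. Leaving out 1 array, list medians ranged from 0.0753 to 0.29 for lipid droplets, from -0.0508 to 0.23 for Pparg and uptake and from 0.17 to 0.63 for Cyp2c. Deviations of same-numbered arrays correlated at 0.0023, 0.0063 and 0.0355 over all probe sets and at 0.0243, 0.0126 and 0.2013 at a mean of 7 or more. Not every pair was over 0.1, so the numbers were not taken as pairs in the main fit. That check left out the insulin arrays. Array medians rose with the replicate number in each group. They were 6.1132, 6.1647 and 6.2654 untreated, 6.1715, 6.2655 and 6.267 with insulin, and 6.1324, 6.2038 and 6.2952 with BI. What lies behind this order was not tested. With the replicate number as a block, 0 probe sets were called in limma (smallest adjusted p 0.461). The 5 called probe sets and the 24 brighter genes kept their sign under each setting that gave them a value, and single list members were not run under these settings.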

Other observations

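Some genes were measured by several bright probe sets, which gives a reading within the array that single probe sets lack. These probe sets read the same RNA samples and are not replicates. Of 3816 genes with 2 or more probe sets at a mean of 7 or more, 34 had BI and untreated arrays apart in one direction for each of them, 19 higher and 15 lower. An unadjusted p under 0.05 in one direction for each was reached by 9, 2 higher and 7 lower with BI. Of single probe sets at that level, 8.72% were apart and 1.73% reached that p. Those shares are of single probe sets, while the gene counts ask it of every bright probe set of a gene. A matching share was not counted, so whether 34 or 9 is many was not tested. The 9 genes were picked out after their values were seen, and none passed the adjusted threshold. Asns, the asparagine synthetase, read 10.92, 10.66 and 10.89 with BI against 11.27, 11.39 and 11.39 untreated on its brighter probe set, with differences of -0.53 and -0.76 on both. Dab2, an endocytic adaptor, had -0.81 and -0.85, with 8.54, 8.10 and 8.24 on the BI arrays against 8.71, 8.99 and 9.62. Endog, a mitochondrial nuclease, had -0.49 and -0.59. Lpl had 1.39 and 1.15, and Hspb1, Enho, Exoc4 and Cplane1 are described above, with the predicted gene Gm6958 as the ninth.

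Genes of cell division were low or uneven on these arrays. Ccna2, the cyclin of S phase, read 6.0, 5.54 and 5.26 with BI against 6.15, 8.21 and 7.13 untreated (-1.56 ± 0.49, limma, adjusted p 0.999). Of 28 measured cell cycle genes 18 lay below 0 (median -0.10), and the median was 0.09 without untreated replicate 2, whose level for the list (0.55) was the highest of the untreated arrays.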
